A study of Mus musculus with 2 samples.

Results

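Peaks of acetylation of histone H4 at lysine 16 (H4K16ac) were described at 10 CC chemokine genes, out of 21887 protein-coding genes of the mouse annotation. The genes were Ccl2, Ccl7, Ccl12 and Ccl8, which lie together on chromosome 11, Ccl5, Ccl9, Ccl6, Ccl3 and Ccl4, which form a separate cluster further along that chromosome, and Ccl22 on chromosome 8. Every peak was taken that touched a gene between its RefSeq start and end, its flanks of 20 kb, or the interval between neighbouring genes of a cluster. By this rule 21 of 58229 wild-type peaks and 6 of 55149 KAT8-cKO peaks belonged to these loci. The samples were 2 libraries of bone marrow-derived macrophages, grown from mouse marrow with M-CSF (20 ng/ml) and exposed to R848 (100 ng/ml) for 2 h. R848 is a small-molecule agonist of TLR7. The wild-type library carried the genotype label WT and the other the label KAT8-cKO, read here as a conditional knockout of the acetyltransferase gene Kat8. There was 1 library per genotype and no unstimulated library, so no difference could be set against the spread between replicates and no test between genotypes was possible. The sources used here do not give the Cre driver, the age of the mice or the extent of the deletion.

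CC chemokines are small secreted proteins with adjacent cysteines near the amino terminus, which bind receptors coupled to G proteins and direct the migration of leukocytes. Activated macrophages are a major source of several of them. H4K16ac is a mark placed mainly by KAT8, which works within the MSL and NSL complexes, and acetylation of this residue loosens the packing of nucleosomes. In CUT&Tag an antibody brings a transposase to the marked nucleosomes, and the fragments it releases are sequenced.

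The peak caller compared, at each position, the pileup (the number of overlapping fragments or extended reads) with a background. Each fold below is the authors' peak caller's own, the pileup plus 1 over this background plus 1, and each q-value is its adjusted p-value, printed as −log10 q. A larger −log10 q stands for a smaller q-value. The pileup itself is not a column of the lists but could be recovered from the fold and p-value together, with a whole number for 99.91% of wild-type and 99.9% of KAT8-cKO peaks and for each of the 27 peaks at the chemokine loci. At the lowest background of each list, which was 3.09 in wild type and 3.68 in KAT8-cKO, a ratio of 1.19, the smallest pileup of a called peak was 8 and 9, respectively. A missing peak therefore means that no stretch was called over its background, not that acetylation was absent. A peak at a gene end was present at 9 of 11 macrophage marker genes in wild type and at 6 in KAT8-cKO, against 46.8% and 43.3% of all protein-coding genes. The counts were 3 and 0 of 7 T cell, 2 and 1 of 5 B cell, 2 and 2 of 7 neutrophil, 2 and 2 of 5 dendritic cell and 1 and 1 of 5 fibroblast markers.

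The peaks that covered a promoter are shown with their sequence, and each was called in a single list. RefSeq promoter windows (GRCm38.p6, the assembly of mm10), which run from 250 bases before to 50 bases after the annotated start, were found for 6 of the 10 genes, namely Ccl3, Ccl6, Ccl8, Ccl9, Ccl12 and Ccl22. Capitals mark the bases under a peak. A wild-type peak covered 128 bases of the Ccl3 window (chr11:83649329-83649628, minus strand) and 103 bases of the Ccl9 window (chr11:83578587-83578886, minus strand). A KAT8-cKO peak covered 239 bases of the Ccl22 window (chr8:94745434-94745733, plus strand). Ccl6 (chr11:83593038-83593337, minus strand), the neighbour of Ccl9, is added for comparison and had no peak over its window in either list.
Ccl3: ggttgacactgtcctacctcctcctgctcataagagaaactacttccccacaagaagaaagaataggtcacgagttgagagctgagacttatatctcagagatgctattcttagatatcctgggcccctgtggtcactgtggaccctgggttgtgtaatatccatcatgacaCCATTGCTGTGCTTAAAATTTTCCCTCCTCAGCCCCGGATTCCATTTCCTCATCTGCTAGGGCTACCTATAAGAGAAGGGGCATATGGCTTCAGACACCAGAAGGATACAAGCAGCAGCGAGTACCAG
Ccl9: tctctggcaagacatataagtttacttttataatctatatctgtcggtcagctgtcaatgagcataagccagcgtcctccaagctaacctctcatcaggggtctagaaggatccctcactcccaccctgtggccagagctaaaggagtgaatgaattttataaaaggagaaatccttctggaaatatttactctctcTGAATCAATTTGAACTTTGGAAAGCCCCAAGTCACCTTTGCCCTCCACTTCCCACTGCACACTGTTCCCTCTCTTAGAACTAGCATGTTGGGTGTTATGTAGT
Ccl22: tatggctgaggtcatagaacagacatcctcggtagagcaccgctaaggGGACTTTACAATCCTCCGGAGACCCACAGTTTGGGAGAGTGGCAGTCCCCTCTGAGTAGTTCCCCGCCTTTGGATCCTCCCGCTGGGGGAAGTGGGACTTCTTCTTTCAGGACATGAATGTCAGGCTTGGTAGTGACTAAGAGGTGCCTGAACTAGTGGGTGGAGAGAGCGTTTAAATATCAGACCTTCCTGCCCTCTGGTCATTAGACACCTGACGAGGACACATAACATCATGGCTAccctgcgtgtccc
Ccl6: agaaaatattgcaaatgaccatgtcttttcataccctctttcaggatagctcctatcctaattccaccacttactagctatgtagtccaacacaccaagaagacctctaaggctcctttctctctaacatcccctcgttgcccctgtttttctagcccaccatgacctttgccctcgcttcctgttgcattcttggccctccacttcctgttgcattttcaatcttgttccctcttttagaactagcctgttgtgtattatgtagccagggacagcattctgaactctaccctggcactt

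Against a median of 7 CG dinucleotides over 32851 promoter windows, the Ccl3 window held 3 and the Ccl6, Ccl8, Ccl9 and Ccl12 windows 2 each, while that of Ccl22 held 8. A wild-type peak touched 27.1% of all promoter windows and a KAT8-cKO peak 22.7%. Among the 17811 windows with at most 8 CG dinucleotides, the highest count of a member, these shares were 5.14% and 3.89%. The members stood at 2 of 6 in wild type and 1 of 6 in KAT8-cKO, and none of the 6 windows was touched by a peak in both lists. The share of all windows touched in both lists is not given here, so that last count has no background to be read against. The loose NF-κB pattern, GGG and CC with 5 bases between them, was found in the Ccl9 window as GGGGCTTTCC and in the Ccl22 window as GGGGACTGCC and GGGAGGATCC, each on the opposite strand and under the peak. It occurred in 50.8% of all promoter windows. The AP-1 pattern TGANTCA was found in 1 of the 6 windows, Ccl9, as TGAATCA at the edge of the peak, and in 7.81% of all windows. The TATA pattern TATAAA was found in Ccl12, Ccl8 and Ccl9 and in 13.6% of all windows. It began 31 bases before the annotated start in Ccl12 and 32 bases before it in Ccl8, which had no peak, and was present only outside the peak in Ccl9. Both strands were searched, and none of the 6 windows held the stricter NF-κB pattern (GGGA, any base, TTTCC; 0.411% of all windows), the interferon response pattern (GAAA repeated after 2 bases; 3.44%), the C/EBP pattern TTGCNNAA (10.8%) or the PU.1 pattern GAGGAAGT (3.2%). The Ccl9 and Ccl6 windows shared a stretch of 67 aligned bases, gaps left out, of which 59 were identical, and the Ccl12 and Ccl8 windows 263 of which 181 were identical. The sources used here do not say how reads that fit several places were treated. Whether this affects peaks in such related stretches was not tested.

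None of the 10 genes had an end peak in both lists. An end carried the mark where a peak came within 1 kb of the annotated position on either side. Wild type marked 4 genes, Ccl2, Ccl9, Ccl3 and Ccl4, and KAT8-cKO marked Ccl5 and Ccl22, with 0 in both lists and 4 in neither. The shares of all protein-coding genes were 46.8% in wild type, 43.3% in KAT8-cKO and 35.8% in both, with 11.1% in the wild-type list alone and 7.52% in the KAT8-cKO list alone. These shares are not matched for CG dinucleotides. Promoter windows with as few of them as the members were touched in 5.14% and 3.89% of cases, against 27.1% and 22.7% of all windows. Within the gene plus 20 kb, 8 members had a wild-type and 4 a KAT8-cKO peak, against 80.5% and 80.2% of all genes. The 4 with a peak in both lists were Ccl2, Ccl5, Ccl9 and Ccl22, against 75.3% of all genes. Another 4 (Ccl7, Ccl6, Ccl3 and Ccl4) had one in wild type only, which held for 5.25% of all genes, and 0 had one in KAT8-cKO only, which held for 4.93%. Neighbouring members share flanks and hence peaks, and Ccl3 and Ccl4 share an end peak, so these counts are not independent. The median number of peaks in the gene plus 20 kb was 3 in wild type and 0 in KAT8-cKO over the members, and 3 in both lists over all protein-coding genes. For genes up to 20 kb long, as all members are, it was 2 in both lists.

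**Figure D1:**
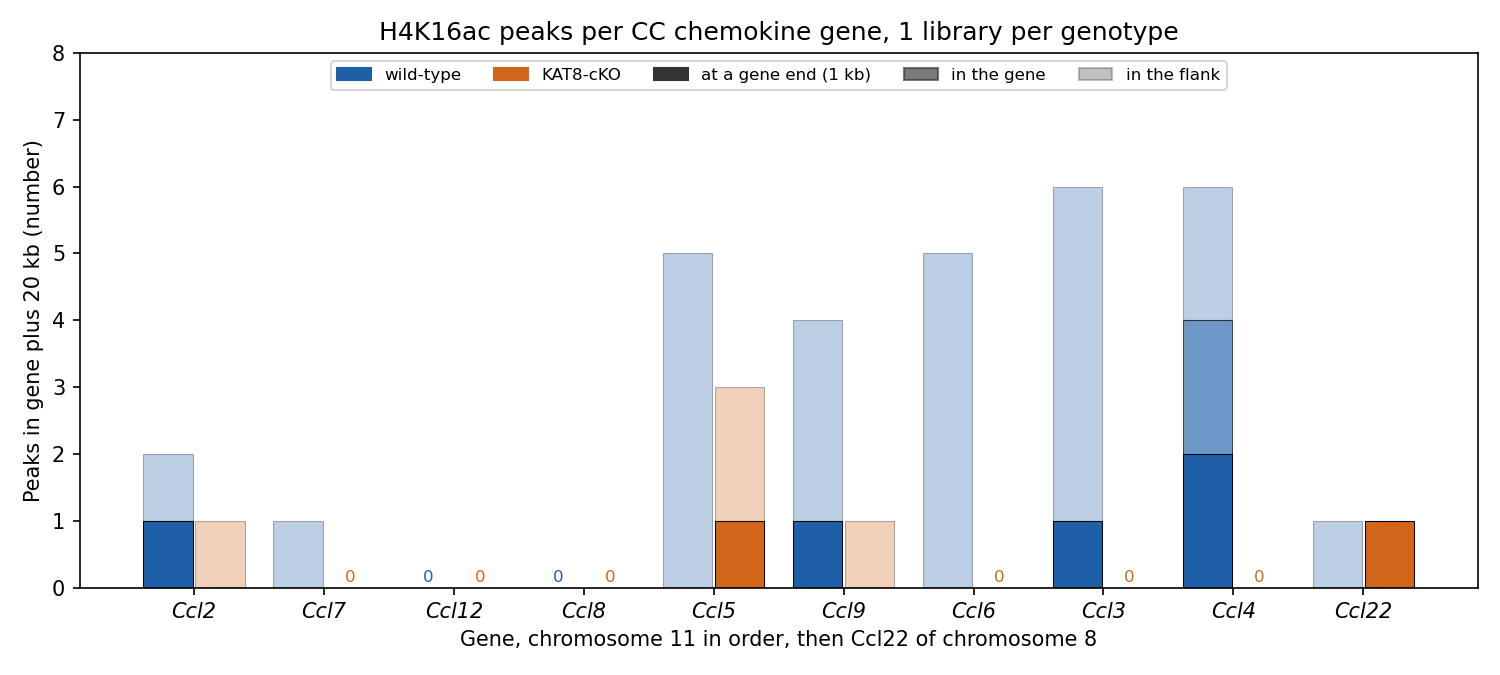
Number of H4K16ac peaks (y axis) in each CC chemokine gene plus 20 kb on both sides, in 1 wild-type library (blue) and 1 KAT8-cKO library (orange), with dark shading for peaks within 1 kb of a gene end, medium for the gene body and light for the flank. Ccl3 and Ccl4 each had 6 wild-type and 0 KAT8-cKO peaks, and Ccl12 and Ccl8 had none in either library.

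The peak counts around Ccl2, Ccl7, Ccl12 and Ccl8 were ordinary for a region of this length. This cluster, with its flanks, spanned 121.2 kb (chr11:82015577-82136799) and held 2 wild-type peaks and 1 KAT8-cKO peak, or 1.65 and 0.825 per 100 kb. Of 20132 autosomal windows of the same length, whose medians were 1 and 2, at least as many wild-type peaks were present in 10056 and no more KAT8-cKO peaks in 9806 (48.7%). Ccl2 (chr11:82035577-82037452) encodes the principal ligand of Ccr2, the receptor by which inflammatory monocytes leave the marrow. Its end peak in wild type (chr11:82035337-82035536) lay 40 bases outside the lower annotated end and stood at rank 57202 of the wild-type list by q-value. It had a fold of 2.13 (−log10 q of 0.165) and a pileup of 8 over a background of 3.22, and the nearest KAT8-cKO peak was 18754 bases away.

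Near the outer limit of the flank of Ccl2, both libraries had a peak close together. The wild-type peak (chr11:82015939-82016162) had a fold of 3.11 (−log10 q of 1.71) and a pileup of 13. The KAT8-cKO peak (chr11:82016221-82016582) had a fold of 3.42 (−log10 q of 2.37) and a pileup of 15, and was the strongest of the 6 KAT8-cKO peaks. These peaks did not overlap, with 58 bases between them. Ccl7 (chr11:82045712-82047525), another ligand of Ccr2, had no peak of its own, and the wild-type peak beside Ccl2 lay within its flank, 10175 bases away. Ccl12 (chr11:82101845-82103399), a mouse ligand of Ccr2, and Ccl8 (chr11:82115185-82116799), which in the mouse activates Ccr8, had no peak in the gene or within 20 kb in either list. The nearest wild-type peaks were 66308 and 79648 bases away and the nearest KAT8-cKO peaks 85262 and 98602 bases. At these genes H4K16ac was thus not detectable as a peak in either library.

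In the cluster from Ccl5 to Ccl4 wild-type peaks were dense, and 1 of 18 (5.56%, exact 95% interval 0.141 to 27.3) was overlapped by a KAT8-cKO peak, against 33.2% of all wild-type peaks. With its flanks it spanned 178.9 kb (chr11:83505778-83684683) and held 18 wild-type and 4 KAT8-cKO peaks, or 10.1 and 2.24 per 100 kb. Of the 18 wild-type peaks 3 lay at a gene end, 2 in a gene body, 12 in a flank and 1 in the interval between Ccl6 and Ccl3. Of the 4 KAT8-cKO peaks 1 lay at a gene end and 3 in a flank. The wild-type peaks were spread over the whole cluster, whereas the 4 KAT8-cKO peaks lay from the higher end of Ccl5 to the flank of Ccl9.

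**Figure D2:**
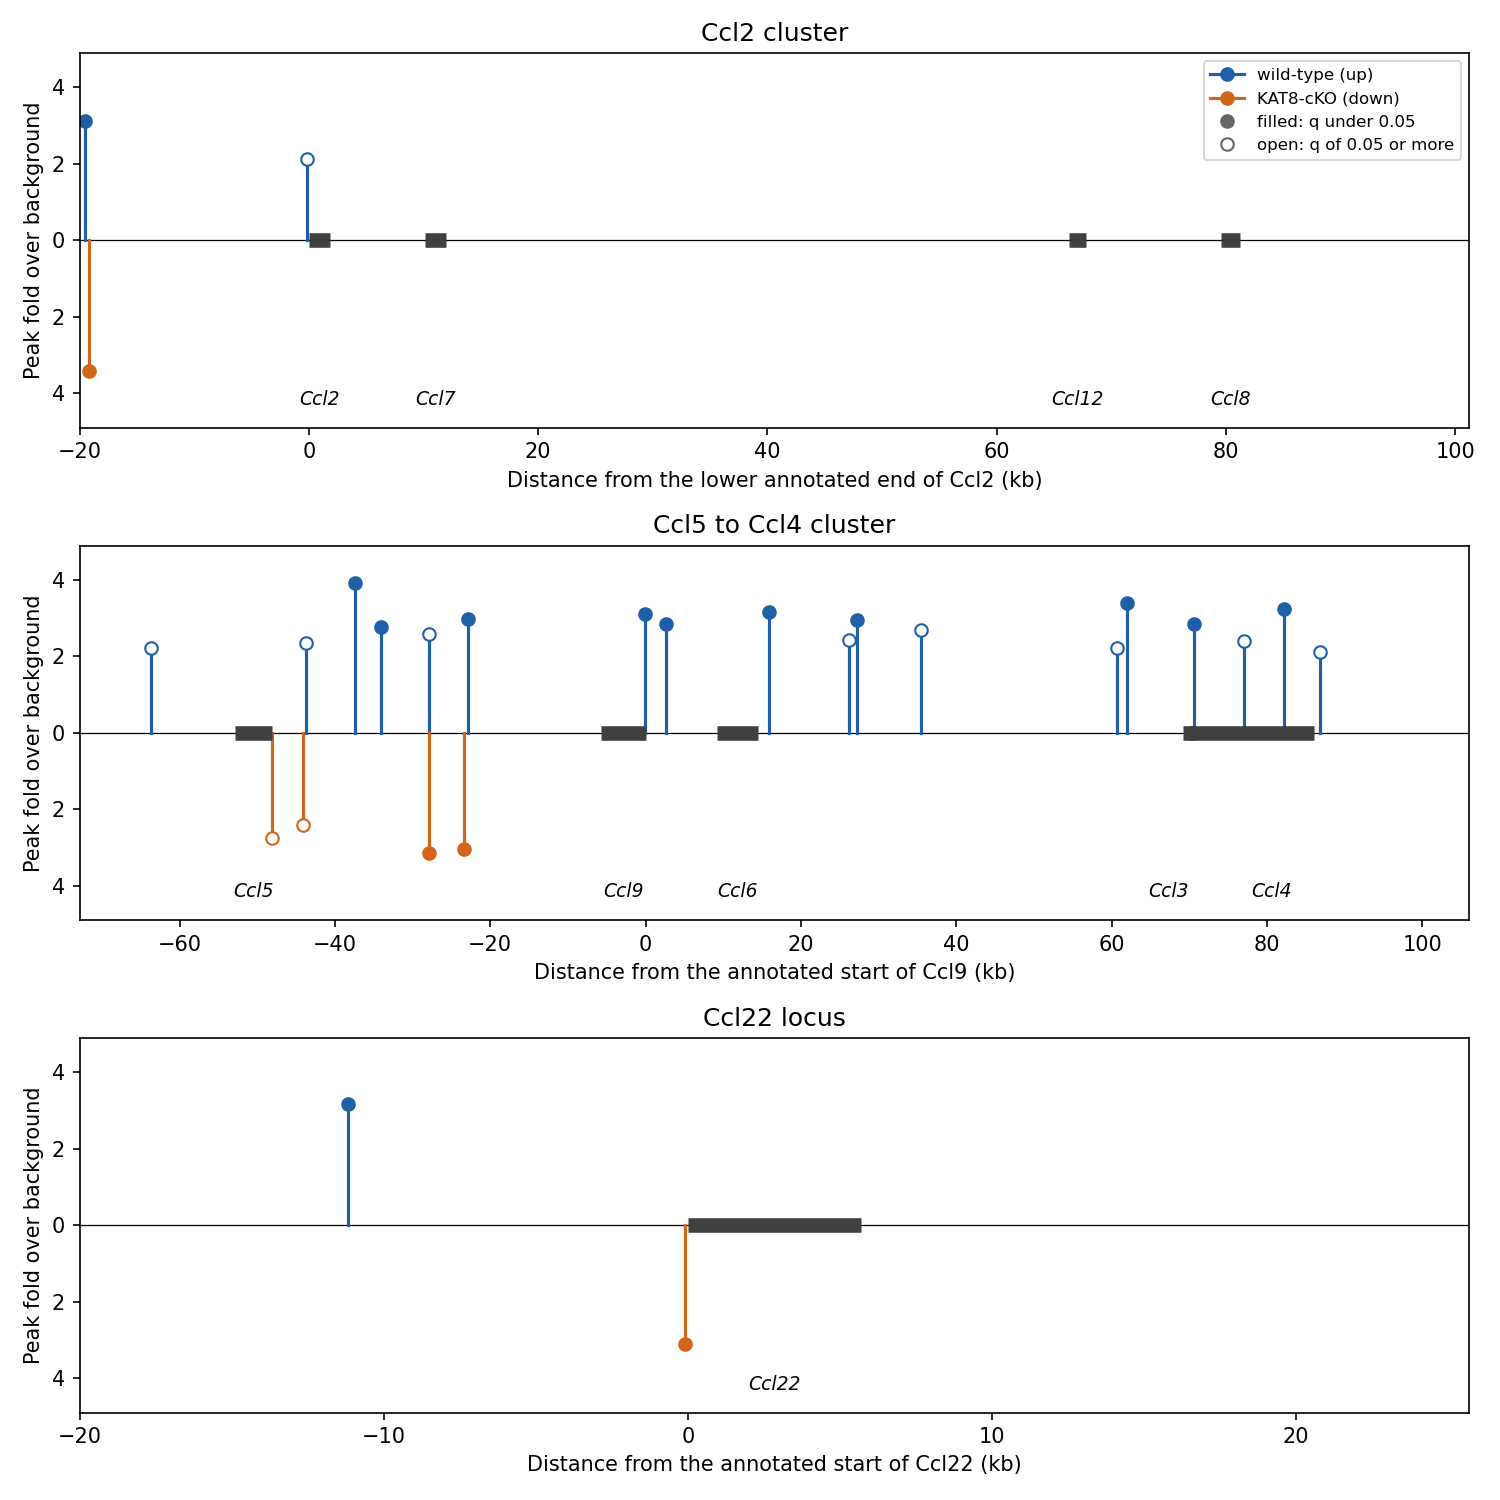
Positions of all 27 peaks at the CC chemokine genes, as distance in kb from an annotated gene end (x axis), against the peak's fold over background (y axis), with wild-type peaks drawn upward and KAT8-cKO peaks downward, filled where the q-value was under 0.05. Grey bars are annotated genes, and the bars of Ccl3 and Ccl4 run into each other. In the Ccl5 to Ccl4 cluster, 18 wild-type peaks are spread along the locus and the 4 KAT8-cKO peaks stand on its left side.

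At Ccl5 (chr11:83525778-83530518), whose product attracts T cells and monocytes through several receptors, Ccr1 among them, the end peak was in KAT8-cKO and the strongest peak in wild type. The KAT8-cKO peak (chr11:83530426-83530625) lay across the higher annotated end, with a fold of 2.75 (−log10 q of 1.09) and a pileup of 13, and did not reach a q-value under 0.05. Wild type had no peak at the ends or in the body of Ccl5, and its nearest peak was 4201 bases away. In the flank the wild-type peak at chr11:83540975-83541535, 10456 bases from the gene, had a fold of 3.91 (−log10 q of 5.41) and a pileup of 24 over a background of 5.4. This was the highest fold and the highest pileup of all 27 peaks, at rank 3635 of the wild-type list by q-value, and the nearest KAT8-cKO peak was 6342 bases away. Among all wild-type peaks with a −log10 q of at least 5, 5.38% (223 of 4147) were not overlapped by a KAT8-cKO peak. Values in that set reach 8120, so the Ccl5 flank peak lies near its lower limit. The share among peaks of like strength is not given here.

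Other peaks in the Ccl5 flanks were weaker. Wild type alone had a peak at chr11:83514772-83515067 (fold 2.23, −log10 q 0.288), inside the neighbouring gene Heatr9, and at chr11:83544424-83544623 (fold 2.78, −log10 q 1.36). About 4 kb beyond Ccl5 both lists had a weak peak, with 87 bases between them. The wild-type peak there (chr11:83534720-83535072) had a fold of 2.34 at a −log10 q of 0.774 and the KAT8-cKO peak (chr11:83534433-83534632) a fold of 2.4 at 0.644. The peaks at the far limit of the flank, 19992 bases from Ccl5, were the only pair that overlapped. The wild-type peak (chr11:83550511-83551031) had a fold of 2.58 (−log10 q of 0.774) and a pileup of 11, and the KAT8-cKO peak (chr11:83550511-83550950) a fold of 3.15 (−log10 q of 1.84) and a pileup of 14. Both began at the same base, and the KAT8-cKO peak alone had a q-value under 0.05.

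Ccl9 and Ccl6 are rodent chemokines that signal through Ccr1 and are made by resting as well as activated myeloid cells. At Ccl9 (chr11:83572917-83578636) a wild-type peak (chr11:83578438-83578689) lay across the annotated start, with its summit 127 bases inside the gene. It had a fold of 3.1 (−log10 q of 1.69) and a pileup of 13 over a background of 3.52, and the nearest KAT8-cKO peak was 22993 bases away. In the interval between Ccl9 and Ccl6, a wild-type peak at chr11:83581097-83581477 had a fold of 2.85 with a −log10 q of 1.33. On the side of Ccl9 towards Ccl5 both libraries again had neighbouring peaks, 155 bases apart. The wild-type peak (chr11:83555600-83555959) had a fold of 2.98 and the KAT8-cKO peak (chr11:83555175-83555444) a fold of 3.04, both with a −log10 q of 1.65 and a pileup of 14. All 4 wild-type peaks counted for Ccl9 had a q-value under 0.05, and its single KAT8-cKO peak did so too.

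Ccl6 (chr11:83587886-83593087) had 5 wild-type peaks in its flanks and no KAT8-cKO peak, the nearest being 32441 bases away. The closest of them, with the highest fold, was at chr11:83594394-83594593, 1306 bases beyond the annotated start, with a fold of 3.15 (−log10 q of 2.11) and a pileup of 15. It lay outside the 1 kb window, so Ccl6 was not counted as marked at an end, but it fell within a window of 3 kb. A pair of wild-type peaks followed at chr11:83604650-83605101 (fold 2.44, −log10 q 0.537) and chr11:83605798-83606000 (fold 2.95, −log10 q 1.36). Just outside the flank, 20706 bases from Ccl6 in the interval towards Ccl3, was a wild-type peak at chr11:83613794-83614362 (fold 2.69, −log10 q 0.774). It was the widest peak at these loci, at 569 bases.

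Ccl3 and Ccl4, which encode inflammatory chemokines made early by stimulated macrophages, had 6 wild-type peaks and no KAT8-cKO peak. The RefSeq span of Ccl4 (chr11:83648624-83664683) rests on 2 transcripts, one of them a predicted model, and begins inside Ccl3 (chr11:83647843-83649378), so that both genes share these peaks and the 1 kb window of the lower end of Ccl4 covers the start of Ccl3. The peak at chr11:83649073-83649456 lay across the annotated start of Ccl3, with its summit 118 bases inside the gene. It had a fold of 2.85 (−log10 q of 1.33) and a pileup of 13 over a background of 3.92. The nearest KAT8-cKO peak was 91559 bases away.

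Stronger wild-type peaks lay on both sides of the start of Ccl3. The peak at chr11:83640387-83640833, 7009 bases beyond the other end of Ccl3, had a fold of 3.4 (−log10 q of 2.7) and a pileup of 16. A peak at chr11:83660649-83660888, within the span of Ccl4, had a fold of 3.24 (−log10 q of 2.75) and a pileup of 18. The remaining 3 did not reach a q-value under 0.05. They were at chr11:83639112-83639543 (fold 2.23, −log10 q 0.362), at chr11:83655589-83655788 in the span of Ccl4 (fold 2.41, −log10 q 0.588), and at chr11:83665361-83665678, 677 bases beyond the higher end of Ccl4 (fold 2.12, −log10 q 0.207). From the KAT8-cKO peak beside Ccl9 to the next one, 185.6 kb away (chr11:83555445-83741015), the KAT8-cKO list was empty while the wild-type list held 14 peaks. Among 54378 stretches of any length between neighbouring KAT8-cKO peaks on autosomes, 3 held at least 14 wild-type peaks (0.00552%), this one included. These 3 were from 159.0 to 250.1 kb long. Among 57263 stretches between neighbouring wild-type peaks 2 held at least 14 KAT8-cKO peaks. The stretch around Ccl6 was picked with its counts known and was not matched for length, so these shares are a description.

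Set against 13635 autosomal windows of equal length, the Ccl5 to Ccl4 cluster had a high wild-type count, an ordinary KAT8-cKO count and a rare combination of both. At least 18 wild-type peaks were present in 1.53% of windows, whose median was 2, and at most 4 KAT8-cKO peaks in 66.2%, whose median was also 2. In the 66 windows with exactly 18 wild-type peaks the KAT8-cKO count ran from 6 to 24, with a median of 14. A surplus of at least 14 wild-type peaks was found in 0.044% of windows (6) and a surplus of at least 14 KAT8-cKO peaks in 0.022% (3), so differences of this size occurred in both directions. The cluster was examined with its peak counts already known, and these shares are a description. The background at the wild-type summits in the chemokine loci had a median of 3.92, against 3.36 over the whole wild-type list, and at the KAT8-cKO summits 4.02 against 3.82. Whether the density of the cluster moves with it was not tested.

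**Figure D3:**
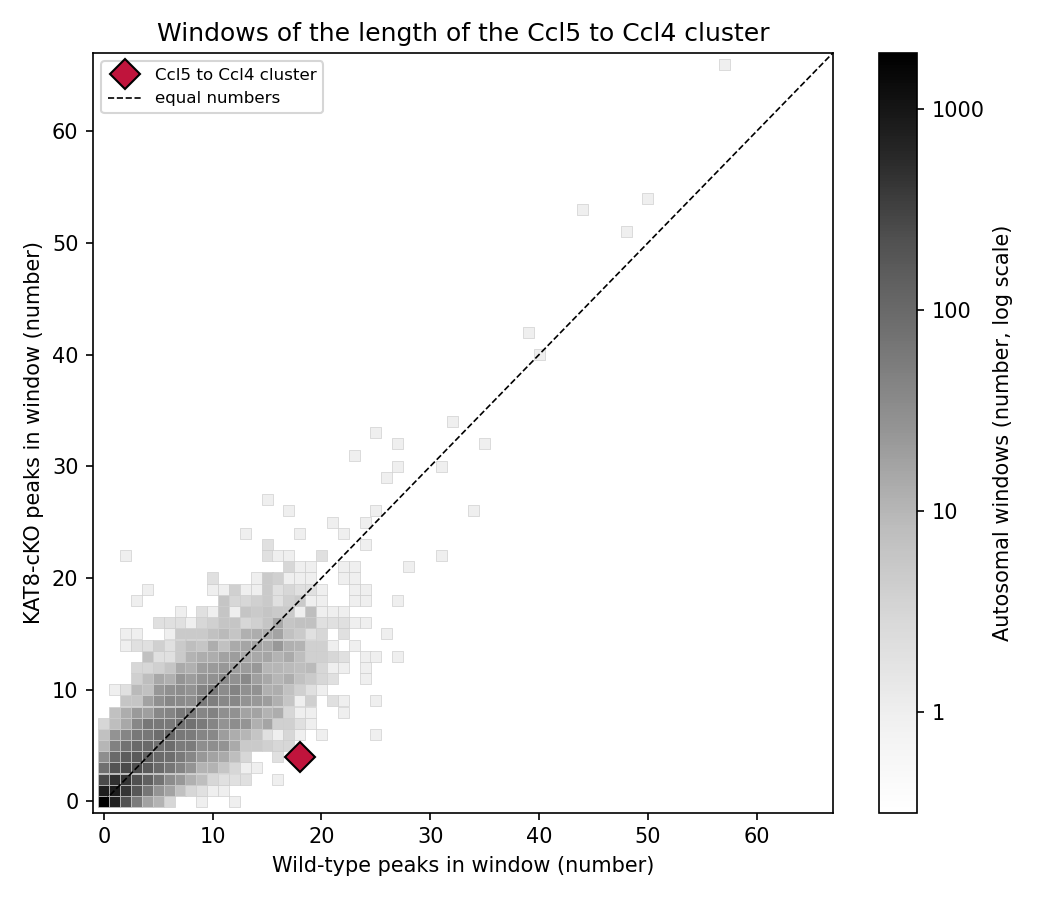
Number of wild-type peaks (x axis) and of KAT8-cKO peaks (y axis) in each of 13635 autosomal windows as long as the Ccl5 to Ccl4 cluster, with darker squares for more windows (log scale) and a dashed line at equal numbers. The cluster (red diamond, 18 wild-type and 4 KAT8-cKO peaks) lies at the lower edge of the cloud.

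Ccl22 (chr8:94745684-94751388) stood alone among the members in having a KAT8-cKO end peak with a q-value under 0.05. Its product binds Ccr4 and draws regulatory and type 2 helper T cells. The KAT8-cKO peak (chr8:94745482-94745720) lay across the annotated start, with its summit 71 bases before it, and had a fold of 3.11 (−log10 q of 1.88) and a pileup of 15 over a background of 4.14. Wild type had no peak there. Its only peak within 20 kb, at chr8:94734335-94734678, was 11005 bases from the gene, with a fold of 3.18 (−log10 q of 1.65) and a pileup of 12. The locus thus held 1 peak in each list, with 10803 bases between them.

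Of the 21 wild-type peaks 1 (4.76%, exact 95% interval 0.12 to 23.8) was overlapped by a KAT8-cKO peak, against 33.2% of all wild-type peaks. Among peaks with a q-value under 0.05 the counts were 0 of 12 (up to 26.5%) against 50.1%, and among the others 1 of 9 (11.1%, 0.281 to 48.2) against 18.3%. The wild-type list reaches a −log10 q of 8120 and these loci 5.41, so the 50.1% is not matched for strength. Over all wild-type peaks in the same range of −log10 q as those at the chemokine loci, 29.1% were overlapped. Of the 6 KAT8-cKO peaks 1 (16.7%, 0.421 to 64.1) was overlapped by a wild-type peak, against 35.6% of the list. Here the counts were 1 of 4 against 51.3% with a q-value under 0.05, and 0 of 2 against 21.7% for the others. The 51.3% is likewise not matched for strength. Over all KAT8-cKO peaks in the same range of −log10 q as these 6, 29.6% were overlapped. The intervals are Clopper-Pearson intervals, which cover counting error over peaks only, and neighbouring peaks are not independent. With overlap widened to a peak within 500 bp, 19.0% of the wild-type and 66.7% of the KAT8-cKO peaks had a counterpart, against 38.8% and 41.6% of the whole lists. The 3 further pairs at these loci lay 58, 87 and 155 bases apart.

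The peaks at these loci were of ordinary strength for their lists. Wild-type folds ran from 2.12 to 3.91 with a median of 2.85, against 2.9 over the whole list, and KAT8-cKO folds from 2.4 to 3.42 with a median of 3.07, against 2.78. A q-value under 0.05 was reached by 12 of 21 wild-type and 4 of 6 KAT8-cKO peaks, against 27288 of 58229 and 25900 of 55149 in the lists as a whole. Widths ran from 200 to 569 bases in wild type and from 200 to 440 in KAT8-cKO. The pileups ran from 8 to 24 with a median of 13 in wild type and from 12 to 15 with a median of 14 in KAT8-cKO, so each peak rests on few fragments.

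**Figure D4:**
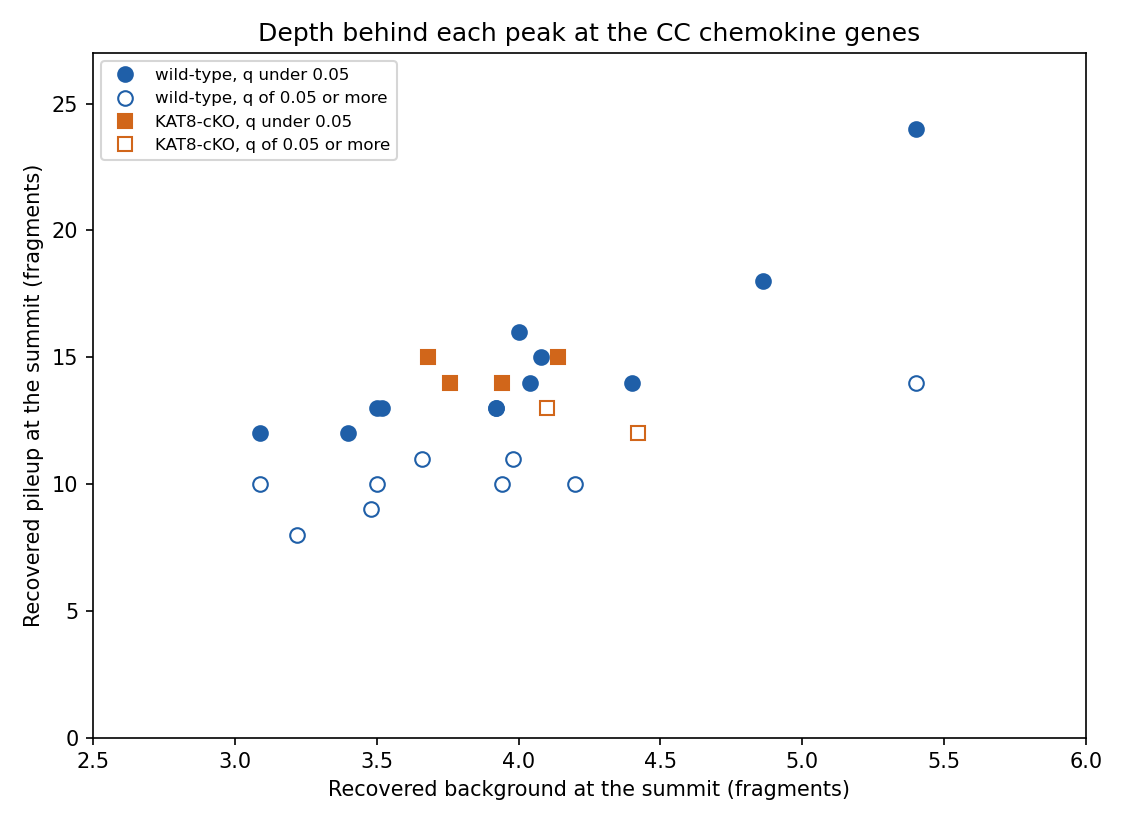
Recovered pileup at the summit (y axis, fragments or extended reads) against the recovered background at the same position (x axis) for the 21 wild-type (blue circles) and 6 KAT8-cKO peaks (orange squares) at the CC chemokine genes, filled where the q-value was under 0.05. All but 2 wild-type peaks lie at a pileup of 16 or less, and 2 wild-type peaks coincide at a pileup of 13 over a background of 3.92.

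Among 11 other CC ligand genes, 2 had an end peak in each library, 3 in the wild-type one alone, 0 in the KAT8-cKO one alone and 6 in neither. Over all protein-coding genes these shares were 35.8% with both, 11.1% for wild type alone and 7.52% for KAT8-cKO alone. Ccl25, which guides T cells to the gut and thymus, had folds of 4.1 in wild type and 3.23 in KAT8-cKO. Ccl19 (3.57 in wild type) and Ccl21a (3.37 and 2.56), ligands of Ccr7, and Ccl27a (3.11 in wild type), a skin chemokine, lie in a duplicated region of chromosome 4 where reads cannot be placed with certainty. Ccl11, which lies between Ccl7 and Ccl12, and Ccl1, which lies beyond Ccl8, had no peak within 20 kb in either list. Ccl17 lies further along chromosome 8 than Ccl22, but not next to it. It had 0 wild-type and 1 KAT8-cKO peak within 20 kb, at neither end.

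Of 15 genes of CC receptors and atypical receptors, 1 (Ackr2) had an end peak in each library, 4 in the wild-type one alone, 1 in the KAT8-cKO one alone and 9 in neither, against 35.8%, 11.1% and 7.52% of all genes. Ccr1, the receptor of Ccl3, Ccl5, Ccl6 and Ccl9, and Ccr4, the receptor of Ccl22, each had a wild-type fold of 3.18 at a −log10 q of 1.65 and no KAT8-cKO end peak. Ccr8 had a weak wild-type peak (2.48, −log10 q 0.583), and Ccr10, a receptor of skin chemokines, a KAT8-cKO peak (2.84, −log10 q 1.45). Ccr2, the receptor of Ccl2, Ccl7 and Ccl12, had no peak in the gene or within 20 kb in either list.

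Of 19 genes that carry the signal from these receptors, 12 had end peaks from each library, 3 from wild type alone, 1 from KAT8-cKO alone and 3 from neither, against the same 35.8%, 11.1% and 7.52%. Rgs2, which limits G protein signalling, had folds of 5.62 in wild type and 3.94 in KAT8-cKO, Plcb2, a phospholipase activated by G proteins, 3.99 and 2.88, and Rap1b, a GTPase of cell adhesion, 3.67 and 2.99. Pik3r5, a regulatory subunit of PI3Kγ, had 3.87 in wild type and no KAT8-cKO end peak. Of 14 genes of CXC, CX3C and XC ligands, 2 (Cxcl1 and Cxcl10) were marked in each library, 2 (Cxcl2, 3.96, and Cxcl16, 3.27) by wild-type peaks alone, 0 by KAT8-cKO peaks alone and 10 in neither. Within 20 kb, 7 of these 14 had a peak in each library, 5 had wild-type peaks alone and 0 had KAT8-cKO peaks alone. Over all genes these shares were 75.3%, 5.25% and 4.93%. The same counts were 7, 0 and 1 of the 11 other CC ligands and 10, 3 and 0 of the 15 CC receptors. They were 18, 0 and 1 of the 19 signalling genes. Cxcl1 had folds of 2.92 and 2.56 and Cxcl10 of 2.69 and 2.99 in wild type and KAT8-cKO. The difference between these lists and the 10 members was not tested.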

How the data were processed

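H4K16ac CUT&Tag was done on 1 wild-type and 1 KAT8-cKO macrophage library. Per the submitters' processing notes DiffBind, MACS2 2.2.7.1 and Bowtie 0.12.8 were used on mm10, in roles those notes leave out. The sources used here do not give peak settings, a control library, duplicate treatment or read totals. The deposited lists give per peak a score (10 times −log10 p without its decimals in 99.993% and 99.991% of peaks), a fold ratio over background, and −log10 of a p-value and a q-value. The lowest deposited −log10 p was 2.01 in both lists, so they hold many weak peaks. No peaks touched within a list.

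Genes came from the RefSeq table of GRCm38.p6, and clusters joined member genes up to 200 kb apart. Overlap meant at least 1 shared base. Depth per library is known only through the pileup, which was recovered by solving (pileup + 1)/(background + 1) = fold together with the upper Poisson tail for the deposited p-value. A pileup counted as whole if the p-value it gave was within 0.001 of the deposited −log10 p. Overlap and pileup code were tested on simulated data. Python 3.11.15, pandas 2.3.3, scipy 1.17.1 and Biopython 1.88 were used. Named genes were all members, and per further list the 4 with the highest end fold. Ccl11, Ccl1, Ccl17, Ccr2, Ackr2 and Heatr9 are named as nearby genes, receptors or counts of 5 or fewer, after their values were seen. The members and lists were chosen with earlier results of these data known. Alternatives changed the q-value threshold, the overlap rule, the end window and the flank, and a pileup threshold was added after the data were seen.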

Additional observations from a re-analysis of the deposited data

How the results depend on the processing

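No paired analysis was possible because each genotype has 1 library. With q-values under 0.05 the loci held 12 wild-type peaks, and overlap was 0% in both lists (0 of 12 and 0 of 4, since the wild-type partner of the shared pair has a higher q-value). The number of members marked at an end in KAT8-cKO only became 1. Raising the threshold to 5 on the −log10 q scale left 1 wild-type and 0 KAT8-cKO peaks, with 0% of that wild-type peak overlapped, 0 members marked at an end in either single list, 0 with flank peaks in both and 1 in wild type only. No share could be given for KAT8-cKO there. With the 20000 strongest peaks of each list there were 6 wild-type peaks and 0% overlap in both lists (0 of 6 and 0 of 4). Then 1 member was marked at an end in wild type only and 1 in KAT8-cKO only. Peaks in the gene plus flanks were in wild type only at 3 members and in KAT8-cKO only at 1. With a pileup of at least 15, added after the data were seen, 4 wild-type and 2 KAT8-cKO peaks were left, with 0% overlap in both. Each of these settings cuts the wild-type peak of the only overlapping pair, and whole-list shares at the same settings are not given here. At that pileup 0 members were marked at an end in wild type only and 1 in KAT8-cKO only. Peaks in the gene plus flanks were present in both lists at 0 members, in wild type only at 5 and in KAT8-cKO only at 2. A counterpart within 500 bp raised the KAT8-cKO share to 66.7%, against 41.6% of the whole list. Starts alone, for the 6 genes with a strand, gave 2 marked in wild type only and 1 in KAT8-cKO only. With flanks of 5 kb and no intervals there were 9 wild-type and 3 KAT8-cKO peaks. Then 1 member had peaks in both, 5 in wild type only and 1 in KAT8-cKO only. With flanks of 50 kb, 2 had peaks in wild type only. The number of members marked at an end in both lists was 0 with the main rule and also with an end window of 3 kb. Only that wider window could have raised it, because the other settings remove peaks or ends or leave the end rule unchanged. All settings rest on the same 2 libraries. Recovered pileups from 8 to 24 limit what can be detected.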

Other observations

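Several wild-type peaks of the Ccl5 to Ccl4 cluster lay at or in long noncoding RNA genes. Gm32650 spans Ccl5, and its annotated span held the wild-type peaks of 3.91, 2.78, 2.34 and 2.23 fold and the KAT8-cKO peaks of 2.75 and 2.4 fold described at Ccl5. The wild-type peak of 2.85 fold between Ccl9 and Ccl6 lay within 1 kb of the lower end of E230016K23Rik, which runs across Ccl6. Those of 3.15, 2.44 and 2.95 fold beyond Ccl6 lay within 1 kb of an end of Gm38933, and the peak of 2.44 fold covered its promoter window. No KAT8-cKO peak lay near an end of E230016K23Rik or Gm38933. The stretch of 1369 kb between the 2 clusters on chromosome 11 held 59 wild-type and 46 KAT8-cKO peaks, or 4.31 and 3.36 per 100 kb.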
